A study of Mus musculus with 2 samples.

Results

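The genes examined here encode enzymes of purine salvage and purine breakdown. They were the 10 genes Xdh, Gda, Pnp, Ada, Ampd2, Ampd3, Hprt, Aprt, Adk and Impdh2, picked by symbol out of 24421 symbols in each file, and all 10 had reads in both libraries. Gene expression was measured by bulk RNA-seq of total RNA from granulocyte-monocyte progenitors (GMPs), the bone marrow (BM) cells that give rise to granulocytes and monocytes, sorted by flow cytometry. One group, NTB-GMP, came from female non-tumor-bearing (NTB) mice, and the other, 4T1-GMP, from female mice in which cells of the mouse mammary carcinoma line 4T1 had been grown as orthotopic tumors. Both groups were labelled F1 semi-syngeneic (H-2b/d), and the number of mice behind a library is not given in the sources used here. Mice were 8 to 12 weeks old, an age that the methods give for experiments in general. Each group had 1 library, so no difference below carries a replicate error or a p-value, and the tumor cannot be told apart from any other difference between the 2 libraries.

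Purine nucleotides are either built anew or recovered from free bases and nucleosides. In salvage, HPRT and APRT attach ribose phosphate to hypoxanthine, guanine or adenine, and ADK phosphorylates adenosine. AMP deaminases turn AMP into IMP, from which purines can be broken down or reused, and are kept here as a group apart from breakdown. In the breakdown of nucleosides and bases, ADA turns adenosine into inosine, PNP splits inosine and guanosine into ribose phosphate and a base, GDA deaminates guanine to xanthine, and XDH oxidizes hypoxanthine and xanthine to uric acid. IMPDH2 stands where IMP is committed to guanine nucleotides. Dividing progenitors draw on these routes beside new synthesis, and loss of ADA, PNP or HPRT causes inherited disease in humans.

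The values were reads scaled to gene length and library size (RPKM), as the authors computed them. The reads behind them were recovered from the digits of the RPKM. The divisor of the RPKM was 10180365 for NTB-GMP and 30016263 for 4T1-GMP, a ratio of 2.95, and the members held 11212 and 50540 reads. A change is given as the log2 ratio of RPKM + 0.1 in 4T1-GMP over NTB-GMP, which understates the change of low genes, with a 95% Clopper-Pearson interval of the read ratio without the 0.1. Such an interval covers counting error of these libraries only, since reads are PCR products without molecular identifiers. Rn45s, the ribosomal RNA precursor, took 16.95% of the size of NTB-GMP and 6.98% of that of 4T1-GMP. Leaving its reads out of both sizes moved each log2 ratio taken without the 0.1 by -0.16. The sizes are not whole, so a scaling may already be in them, and whether it allowed for Rn45s is not known. Comparisons took in the 10378 genes whose mean RPKM reached 1, with a median log2 ratio of 0.05. Of these, 5676 (54.7%) were higher in 4T1-GMP and 4702 were lower, the shares against which the counts below stand. Of 10 GMP and primary granule genes, 7 were higher in 4T1-GMP and Kit, Cd34 and Fcgr3 were lower (summed RPKM 10662 and 16379), with Ms4a3 at 479 and 1220 RPKM and Mpo at 5162 and 5625 RPKM in NTB-GMP and 4T1-GMP. Other cell type markers moved between the libraries as well. All 12 genes of the neutrophil secondary and late granule list were higher in 4T1-GMP (summed RPKM 514 and 4072), while 7 of 8 compared monocyte and dendritic genes (summed 180 and 81.5), 8 of 8 basophil, mast cell and eosinophil genes (1824 and 650) and 4 of 4 compared erythroid and megakaryocyte genes (32.0 and 9.04) were lower, with Hba-a1 and Hbb-bt listed at 0 in both. Of the stem and multipotent progenitor list, 2 of 3 compared genes were lower (summed 32.6 and 18.4). The lymphoid list had a summed RPKM of 192 in NTB-GMP and 338 in 4T1-GMP, nearly all of it from Nkg7. Nkg7 had 190 and 337 RPKM, a log2 ratio of 0.82 (interval 0.75 to 0.90). Only Nkg7 of this list reached a mean RPKM of 1. Dntt had 11 reads in NTB-GMP and 6 in 4T1-GMP. Cd3e, Cd3d and Cd79a were each under 0.3 RPKM in both libraries. The part of these cell types in the enzyme values below was not tested, and fewer cells of a type cannot be told apart from less RNA per cell.

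To show what precedes the genes, the 250 bases before the transcription start are given for Gda and Pnp, the genes of highest level in the breakdown of nucleosides and bases, and for Hprt and Impdh2, the members of highest level. They come from RefSeq on GRCm38.p6, 5′ to 3′ on the strand of the gene, and lie at chr19:21472662-21472911 (Gda, minus strand), chr14:50944053-50944302 (Pnp, plus), chrX:52987828-52988077 (Hprt, plus) and chr9:108560186-108560435 (Impdh2, plus). Capitals mark letters that match a motif of C/EBP (TTGCNNAA), IRF (GAAANNGAA), PU.1 (GGAAGT), an E-box (CACGTG), SP1 (GGGCGG) or NFY (CCAAT) on either strand.
Gda: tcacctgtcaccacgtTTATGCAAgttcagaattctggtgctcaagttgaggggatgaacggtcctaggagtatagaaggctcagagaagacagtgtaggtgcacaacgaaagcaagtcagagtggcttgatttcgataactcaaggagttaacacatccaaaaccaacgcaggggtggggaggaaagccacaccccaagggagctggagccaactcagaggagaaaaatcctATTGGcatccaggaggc
Pnp: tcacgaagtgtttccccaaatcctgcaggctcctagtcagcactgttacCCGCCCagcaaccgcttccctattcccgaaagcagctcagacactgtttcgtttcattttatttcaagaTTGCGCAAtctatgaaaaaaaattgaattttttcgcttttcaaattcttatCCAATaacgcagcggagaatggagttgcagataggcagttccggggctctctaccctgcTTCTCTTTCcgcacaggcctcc
Hprt: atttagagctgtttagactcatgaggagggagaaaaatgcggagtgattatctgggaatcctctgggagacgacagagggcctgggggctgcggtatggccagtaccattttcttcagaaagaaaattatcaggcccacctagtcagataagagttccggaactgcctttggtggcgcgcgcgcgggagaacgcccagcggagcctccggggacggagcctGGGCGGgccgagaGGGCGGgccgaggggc
Impdh2: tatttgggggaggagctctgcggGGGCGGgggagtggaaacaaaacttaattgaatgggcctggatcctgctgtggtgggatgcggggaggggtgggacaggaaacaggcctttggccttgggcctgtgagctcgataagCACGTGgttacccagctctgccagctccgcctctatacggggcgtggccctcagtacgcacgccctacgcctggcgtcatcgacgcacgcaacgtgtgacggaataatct

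Windows from 250 bases before to 50 after the start were found for 9 of the 10 members, 13 windows in all, with none for Xdh. Letters of the C/EBP motif were found for 3 of the 9 genes, Gda, Pnp and Ampd3 (in 1 of its 3 windows). By window this was 3 of the 13, against 10.8% of 32851 windows of mouse genes. SP1 letters were found for 7 of the 9 genes, the exceptions being Gda and Ampd3. By window this was 9 of 13, against 35.7% of all windows. NFY letters were found for 6 of 9 genes and in 8 of 13 windows (37.4% of all windows). E-box letters were found for Ampd3 and Impdh2, in 2 of 13 windows (7.15% of all). IRF letters were found for Pnp (8.56% of all windows) and PU.1 letters for Ampd3 (23.8%), each in 1 of 13 windows. Overlapping matches were counted separately, as in the run of SP1 letters before Ampd2. The windows of Ampd2 overlap and hold the same SP1 letters, so counts by window are not of independent stretches. The ratio of observed to expected CpG was 0.41 in the window of Gda, 0.73 in that of Pnp, 0.84 in that of Hprt and 0.87 in that of Impdh2, against a median of 0.38 over all windows. For Ampd3 it ranged from 0.15 to 0.72 over the 3 windows, and the RPKM do not show which start was used. A match is a description of the letters and not a site of binding.

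All 10 members had a higher RPKM in 4T1-GMP than in NTB-GMP, where 54.7% of the compared genes did. For 9 of them, all but Impdh2, the interval of the reads lay wholly over 0, as it did for 36.3% of the compared genes. When the reads of Rn45s were not counted in the sizes, 9 of 10 were higher, against 39.2% of the compared genes, and 8 of 10 had an interval wholly over 0, against 22.3%. Ampd3, Xdh and Gda had a log2 ratio of at least 1, which 3.25% of the compared genes reached, and these genes were known to stand high when the members were chosen. No member had a log2 ratio of -1 or lower. Only 4.92% of the compared genes did, so this count does not set the members apart. The median log2 ratio of the members was 0.71 (quartiles 0.43 and 1.23). Ampd3 was below 1 RPKM in NTB-GMP and reached a mean of 1 only through 4T1-GMP, but every member is counted here whatever its level.

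**Figure D1:**
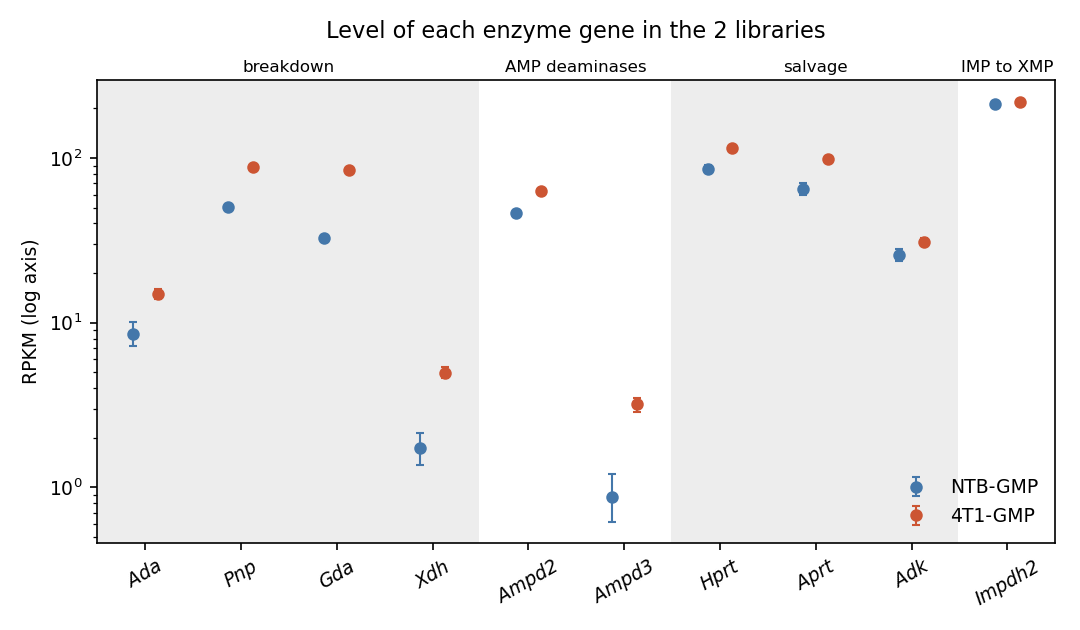
RPKM (log axis) of the 10 enzyme genes, grouped by role, in NTB-GMP (blue) and 4T1-GMP (orange), with 1 library each. Bars are exact 95% Poisson intervals of the reads, hidden by the points where they are narrow. The gap between the libraries is widest for Ampd3 (0.874 and 3.18 RPKM) and Xdh (1.72 and 4.97 RPKM), and the Impdh2 points nearly coincide (214 and 218 RPKM).

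The order of levels was nearly the same in both libraries. In NTB-GMP it ran from Impdh2 (214 RPKM) through Hprt, Aprt, Pnp, Ampd2, Gda, Adk, Ada and Xdh to Ampd3 (0.874 RPKM), a range within which 1 pair of neighbours, Pnp and Ampd2, had overlapping Poisson intervals. In 4T1-GMP the order was the same but for Gda, which stood above Ampd2 (84.7 and 63.0 RPKM) after standing below it in NTB-GMP (32.7 and 46.1 RPKM), and no neighbouring intervals overlapped. Impdh2 was above 98.0% of the compared genes in NTB-GMP, while Ampd3 was above 1.19% of them.

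Among the enzymes that break down nucleosides and bases, each of the 4 genes was higher in 4T1-GMP, and their summed level was 93.2 RPKM in NTB-GMP against 193 RPKM in 4T1-GMP, 2.08-fold higher. Xdh encodes xanthine dehydrogenase, the last enzyme before uric acid, whose oxidase form also yields superoxide and hydrogen peroxide. Its level was 1.72 RPKM (81 reads) in NTB-GMP and 4.97 RPKM (688 reads) in 4T1-GMP. This was a 2.88-fold difference and a log2 ratio of 1.47 (interval 1.19 to 1.88), above that of 98.3% of the compared genes. Xdh remained a low gene in 4T1-GMP, where 24.4% of the compared genes lay below it. The gene lies on the minus strand of chromosome 17, from 73883895 to 73950397 (GRCm38, the assembly of mm10, in RefSeq coordinates as for all positions here).

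Gda, on chromosome 19 from 21391307 to 21472661, encodes guanine deaminase, which takes guanine out of reach of salvage. It had 32.7 RPKM (1801 reads) in NTB-GMP and 84.7 RPKM (13780 reads) in 4T1-GMP. The log2 ratio was 1.37 (interval 1.30 to 1.45), above that of 98.2% of the compared genes and 2.60-fold on the RPKM. Unlike Xdh and Ampd3, Gda was among the higher genes of both libraries, above 81.1% of the compared genes in NTB-GMP and 92.8% in 4T1-GMP. Its interval was the narrowest of the 3 genes with a log2 ratio of at least 1.

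Pnp and Ada act before these enzymes. Pnp, purine nucleoside phosphorylase (chromosome 14, 50944303 to 50953412), had 50.3 RPKM (1505 reads) in NTB-GMP and 88.8 RPKM (7836 reads) in 4T1-GMP, a log2 ratio of 0.82 (interval 0.74 to 0.90). Ada, adenosine deaminase (chromosome 2, 163726571 to 163750239), had 8.53 RPKM (148 reads) and 14.996 RPKM (767 reads), a log2 ratio of 0.81 (interval 0.56 to 1.08). The folds of Pnp and Ada were alike, at 1.77 and 1.76, although Pnp had the higher level. Pnp2, a tandem copy of Pnp on the same chromosome (50956141 to 50964751), had 15.9 and 25.7 RPKM, a log2 ratio of 0.69 (interval 0.47 to 0.92). In the GENCODE M21 transcripts, 25.2% of the 50-base stretches of Pnp also occur in other genes (15.1% in Pnp2), so reads of the copies may have been split or dropped. The exact interval of the Pnp change over the Pnp2 change, 1.09-fold, ran from 0.924 to 1.29 and included 1.

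The AMP deaminases AMPD2 and AMPD3 catalyze the same reaction, and their genes stood far apart in level and in change. Ampd3, the isoform best known from erythrocytes (chromosome 7, 110767790 to 110812409), had 0.874 RPKM (38 reads) in NTB-GMP and 3.18 RPKM (408 reads) in 4T1-GMP. Its log2 ratio of 1.75 was the highest of the members and above that of 98.8% of the compared genes, with an interval of 1.38 to 2.38. Without the added 0.1 the log2 ratio was 1.86. Ampd2 (chromosome 3, 108074059 to 108086687) had 46.1 RPKM (1833 reads) and 63.0 RPKM (7377 reads), a log2 ratio of 0.45 (interval 0.37 to 0.52). Ampd2 was therefore 52.8 times as high as Ampd3 per length in NTB-GMP and 19.8 times as high in 4T1-GMP. Ampd3 shares exon bases with Rnf141 on the opposite strand, which had 8.98 and 10.3 RPKM, and without a stated strand setting their shared reads cannot be told apart. The 4 compared genes of the erythroid and megakaryocyte list were lower in 4T1-GMP, among them Klf1 (2.18 and 0.326 RPKM) and Gata1 (4.23 and 0.806 RPKM). Pf4, of the same list but too low to be compared, had 0.334 and 0.453 RPKM (1 and 4 reads). The part of erythroid cells in the Ampd3 values was not tested.

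**Figure D2:**
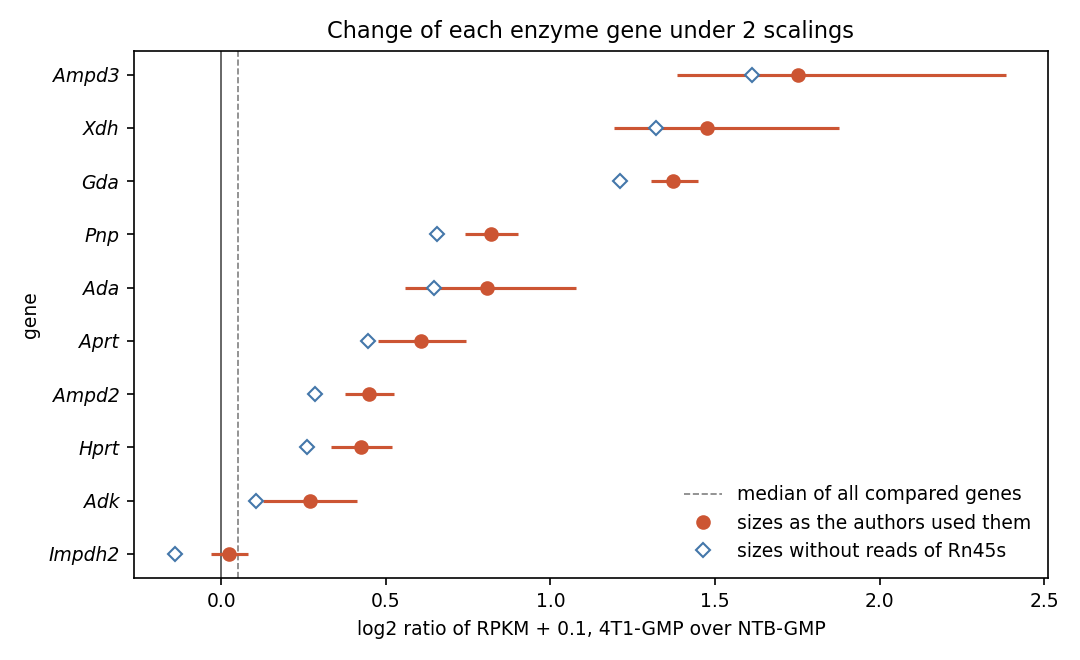
Log2 ratio of RPKM + 0.1 in 4T1-GMP over NTB-GMP for the 10 enzyme genes, in order of size. Filled points with 95% Clopper-Pearson intervals use the library sizes of the authors, open diamonds leave the reads of Rn45s out, and the dashed line is the median of all compared genes (0.05). Ampd3, Xdh and Gda lie beyond 1 under both scalings, and Impdh2 moves from 0.02 to -0.14.

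Changes in the salvage enzymes were smaller. The summed level of Hprt, Aprt and Adk was 176 RPKM in NTB-GMP against 245 RPKM in 4T1-GMP, 1.39-fold higher, with log2 ratios from 0.27 to 0.61. Aprt, adenine phosphoribosyltransferase (chromosome 8, 122574637 to 122576907), had the highest log2 ratio of the 3, at 0.61 (interval 0.48 to 0.74), with levels of 64.5 RPKM (569 reads) in NTB-GMP and 98.4 RPKM (2558 reads) in 4T1-GMP. Hprt, hypoxanthine-guanine phosphoribosyltransferase (chromosome X, 52988078 to 53021660), had the highest level of the 3, with 86.2 RPKM (1184 reads) and 116 RPKM (4685 reads), a log2 ratio of 0.42 (interval 0.33 to 0.52).

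Adk, adenosine kinase (chromosome 14, 21052574 to 21448569), had 25.7 RPKM (511 reads) in NTB-GMP and 31.0 RPKM (1816 reads) in 4T1-GMP. Its log2 ratio was 0.27 (interval 0.13 to 0.41). Without Rn45s in the library sizes it was 0.11, and the interval, -0.04 to 0.25, then included 0. Of the 3 salvage genes, only Adk lost its place over 0 in this way.

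Impdh2, IMP dehydrogenase 2 (chromosome 9, 108560436 to 108565577), was the most abundant member and the only member whose interval held 0. It had 214 RPKM (3542 reads) in NTB-GMP and 218 RPKM (10625 reads) in 4T1-GMP, a log2 ratio of 0.02 (interval -0.03 to 0.08), close to the median of all compared genes. Without Rn45s in the library sizes the log2 ratio was -0.14, with an interval of -0.19 to -0.08, so the direction of this gene depends on the scaling. A processed copy, Impdh2-ps, holds 73.9% of the 50-base stretches of the Impdh2 transcript, and how reads that match both were counted is not given in the sources used here. Impdh2 also shares exon bases with Ndufaf3 on the opposite strand (9.57 and 12.5 RPKM). Impdh1, its paralog, named after its values were seen, had 66.7 and 78.1 RPKM, a log2 ratio of 0.23 (interval 0.12 to 0.33).

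A ratio of members within a library does not depend on the library size or on Rn45s. Genes of enzymes that compete for a substrate were therefore set against each other, in comparisons chosen after the values were seen. For guanine, Hprt stood 2.64 times as high as Gda in NTB-GMP and 1.37 times as high in 4T1-GMP, so Gda over Hprt was 1.93-fold higher in 4T1-GMP (exact 95% interval of the read ratio 1.78 to 2.10). For hypoxanthine, the level of Xdh was 0.0200 of that of Hprt in NTB-GMP and 0.0429 of it in 4T1-GMP, and Xdh over Hprt was 2.15-fold higher (interval 1.69 to 2.76). For adenosine, Adk stood 3.01 times as high as Ada in NTB-GMP and 2.07 times as high in 4T1-GMP, with Ada over Adk 1.46-fold higher (interval 1.19 to 1.797). In each comparison the salvage gene stayed the higher of the pair while the breakdown gene gained on it.

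Ratios of enzymes on the same or neighbouring steps were compared as well. Ampd3 over Ampd2 had the largest difference of the pairs, and was 2.67-fold higher in 4T1-GMP (interval 1.90 to 3.84) and Pnp over Hprt 1.32-fold higher (1.21 to 1.43). Aprt over Hprt was 1.14-fold higher, with an interval of 1.02 to 1.27 that came close to 1. Impdh2 over Hprt was lower in 4T1-GMP, at 0.758 times its value in NTB-GMP (0.703 to 0.817).

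**Figure D3:**
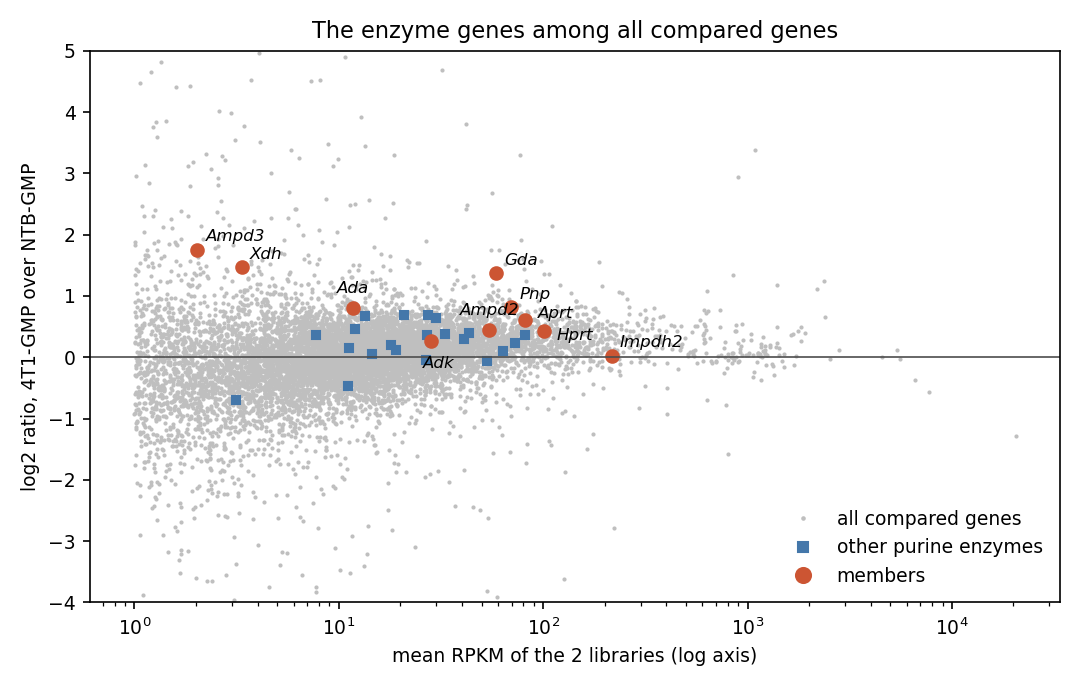
Log2 ratio in 4T1-GMP over NTB-GMP against mean RPKM (log axis) for the compared genes (grey), other purine enzymes (blue squares) and the 10 members (orange, named). The axis runs from -4 to 5 and leaves out 31 compared genes. Ampd3 and Xdh lie at the left among low genes, Gda lies at 1.37 to the right of them, and Impdh2 lies farthest right at 0.02.

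Neighbouring purine enzymes had smaller log2 ratios than the 4 breakdown members, which were chosen with earlier results of these data known. Of a list of 27 other salvage, interconversion and breakdown enzymes, 21 were compared, with a median log2 ratio of 0.30. Of these, 17 were higher and 4 lower in 4T1-GMP, where 54.7% of all compared genes were higher. When Rn45s was not counted, 13 were higher, against 39.2% of all compared genes. None of the 21 had a log2 ratio of at least 1 or at most -1. Only 3.25% and 4.92% of all compared genes reached these bounds, so this count does not set the list apart. The highest were Itpa, which removes deaminated purine triphosphates (20.9 and 33.8 RPKM, log2 ratio 0.69, interval 0.49 to 0.90), Pnp2 and Dck, the deoxycytidine kinase that also takes deoxyadenosine and deoxyguanosine (10.4 and 16.5 RPKM, log2 ratio 0.67, interval 0.50 to 0.85). The intervals of Itpa, Pnp2 and Dck overlapped those of the members Ada (0.56 to 1.08) and Pnp (0.74 to 0.90). The lowest log2 ratio was that of Lacc1, a purine nucleoside enzyme of macrophages (3.90 and 2.36 RPKM, log2 ratio -0.70, interval -1.10 to -0.35).

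Enzymes that act on uric acid after XDH gave no reads. Uox, Urah, Urad and Allc were listed at 0 in both libraries, as was Ampd1, the AMP deaminase of skeletal muscle. In the list of 6 enzymes of de novo purine synthesis, 5 were higher in 4T1-GMP, where 54.7% of all compared genes were. Without Rn45s 3 were higher, against 39.2%. The median log2 ratio was 0.17. The highest value was 0.36, that of Adsl, which is also counted in the list of other purine enzymes above. None of the 6 passed a log2 ratio of 0.5. The upper quartile of all compared genes was 0.32, so this count does not set the list apart.

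XDH carries a molybdenum cofactor, so the genes that make it and the other molybdenum enzymes were listed. Of 12 such genes, 6 were compared, with a median log2 ratio of 0.07 and none beyond 0.5 in size. The quartiles of all compared genes were -0.26 and 0.32, so this count does not set the list apart. Of the 6, 3 were higher and 3 lower in 4T1-GMP, where 54.7% of all compared genes were higher. Mocos, the sulfurase that activates the cofactor of XDH, lay under the mean of 1 RPKM and is named after its values were seen. It had 0.443 RPKM (13 reads) in NTB-GMP and 1.13 RPKM (98 reads) in 4T1-GMP, a log2 ratio of 1.18 (interval 0.51 to 2.31). Aox3 and Aox4, aldehyde oxidases related to XDH, were listed at 0 in both libraries.

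**Figure D4:**
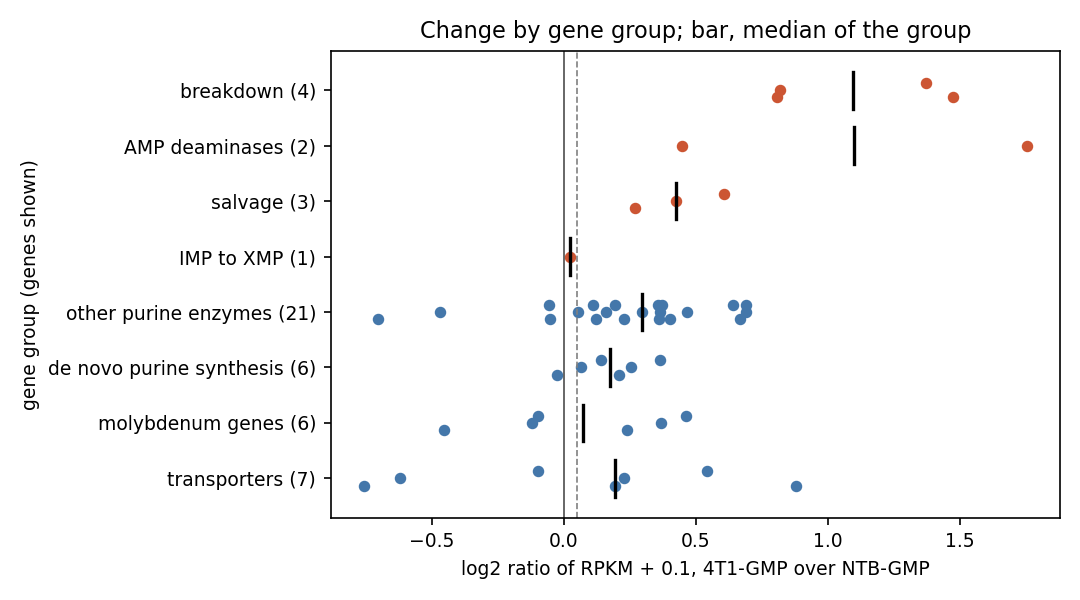
Log2 ratio of each gene by group, with members in orange, other purine-related lists in blue, a black bar at each group's median and a dashed line at the median of all compared genes (0.05). The row IMP to XMP (xanthosine monophosphate) is Impdh2. The 4 breakdown members, AMP deaminases not included, lie from 0.81 to 1.47, the AMP deaminases at 0.45 and 1.75, the salvage members from 0.27 to 0.61 and the 6 genes of de novo synthesis from -0.03 to 0.36.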

How the data were processed

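RNA from GMPs of NTB and 4T1-bearing mice was measured by RNA-seq in 2 libraries, 1 per group. The authors deposited RPKM, 1 value per gene symbol, at full precision. The submitters' processing notes name CASAVA 1.8.2, cutadapt 1.2.1, TopHat2 2.0.13, Picard 1.97, HTSeq 0.6.1, edgeR 3.12.1 and the mm10 build. The role of each tool, the strand setting and the gene annotation are not given in the sources used here.

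The members, lists and comparisons were chosen with earlier results of these data known. Whole reads were recovered by finding the library sizes and gene lengths (within 1e-06) that make each RPKM a whole number of reads, for 14833 of 14833 genes above 0. The sizes, 10180365.239 and 30016262.796, are not whole, as read totals would be, so a scaling may already be in the RPKM. When tested on simulated reads, both counts were exact for 85.8% of 13340 genes, and they did not exceed the true count for 99.99%, so recovered reads are minimum values. With 1 library per group no test was made. Log2 ratios used a pseudocount of 0.1, and genes whose mean RPKM reached 1 were compared. Named genes were the members, and in each pathway list up to 3 genes highest and lowest beyond 0.5 in size, those of the enzyme list at 0, and up to 2 of the highest genes per marker list. Ms4a3, Slc22a12, Aox3, Aox4, Adora1, genes that overlap members, marker genes at or near 0, the lower GMP markers and the erythroid regulators were named after their values were seen. Alternatives were pseudocounts of 1 and 0.01, library sizes without Rn45s, quantile normalization, centring on the median, and minimums of 0 and 5 RPKM. Sequences were from RefSeq (GRCm38.p6) and GENCODE M21. Computations used Python 3.11.15, numpy 2.4.6, pandas 2.3.3 and scipy 1.17.1.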

Additional observations from a re-analysis of the deposited data

How the results depend on the processing

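The median log2 ratio of the members, 0.71 as reported, was 0.475 after quantile normalization and ran from 0.54 to 0.71 under the other scalings and pseudocounts. It was 0.53 over members with a mean RPKM of at least 5, and 0.61 to 0.81 on leaving out 1 member at a time. The number of members higher in 4T1-GMP was 10, or 9 when Rn45s was not counted in the sizes, after quantile normalization and after centring on the median. Impdh2 was the gene that turned, to -0.14, -0.21 and -0.026, respectively. The number with a log2 ratio of at least 1 was 3 under every scaling and pseudocount. The share of all genes higher in 4T1-GMP, 54.7% as reported, was 51.4% over all genes above 0 and 59.9% at a minimum of 5 RPKM. It was 39.2% without Rn45s, which shifts every log2 ratio taken without a pseudocount by -0.16. Single members gave 50 alternative values. On the same side of 0 as the reported value, 34 lay inside the counting interval of the gene and 13 outside it. The other 3 turned, and of these the -0.026 of Impdh2 after centring lay inside its counting interval (-0.03 to 0.08). The cause of the changes after quantile normalization was not tested. Depth limits Ampd3 and Xdh, with 38 and 81 reads in NTB-GMP. No paired analysis was possible because NTB-GMP and 4T1-GMP had a single library each, which also leaves no replicate to drop.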

Other observations

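Of 11 transporters of purine nucleosides, bases and urate, 7 were compared, 4 of them higher and 3 lower in 4T1-GMP. Of all compared genes, 54.7% were higher, so this count is close to that share. Slc28a2, a concentrative transporter of purine nucleosides, had 26.3 RPKM in NTB-GMP against 38.4 in 4T1-GMP (log2 ratio 0.54, interval 0.45 to 0.64). Slc29a2, an equilibrative nucleoside transporter, had 0.993 RPKM (25 reads) and 1.91 RPKM (142 reads), a log2 ratio of 0.88 (interval 0.33 to 1.62). Slc29a2 reached a mean of 1 RPKM only through 4T1-GMP. Slc29a3, the equilibrative transporter of lysosomes, had 7.80 and 4.57 RPKM (log2 ratio -0.76, interval -0.95 to -0.59), and Slc2a9, a urate transporter, had 4.35 and 2.79 RPKM (log2 ratio -0.62, interval -0.91 to -0.36). Slc22a12, the urate transporter of kidney, was listed at 0 in both libraries.

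None of the 4 adenosine receptor genes reached a mean RPKM of 1. Adora2a, named after its values were seen, had the most reads. It had 1.40 RPKM (37 reads) in NTB-GMP and 0.217 RPKM (17 reads) in 4T1-GMP. Its log2 ratio was -2.24 (interval -3.60 to -1.82). Adora2b (0 and 5 reads) and Adora3 (1 and 8 reads), also named after their values were seen, went the other way. They had 0.181 and 0.225 RPKM in 4T1-GMP. Adora1 was listed at 0 in both libraries.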
